A study of Drosophila melanogaster with 5 samples.

Results

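Maternal and eggshell transcripts are mRNAs that a fly ovary makes for the egg, and they were followed here in RNA from whole adult males. The set held 38 of the 16974 genes in the count files, chosen as oocyte, yolk, vitelline membrane and chorion genes and followed as level per library, with NB replicate 2 and LB replicate 1 set against the other 3 libraries. All 38 genes were found. They had 70 annotated transcripts, of which 37 had a count in any library and 27, from 25 genes, passed the filter of 10 counts summed over the 5 libraries. The members were picked because of that split between libraries, so levels by library are described here and were not tested.

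RNA-seq was made from whole flies of the strain Oregon-R (Oregon in the labels), labelled as 3 days old. LB-flies (3 libraries) developed in a shielded deep underground laboratory under low background radiation, and NB-flies (2 libraries) in a ground laboratory under normal background. Per the study's methods, each library held pooled males of 1 vial, both groups shared the line and the food, and the vials of a group were its biological repeats. Counts were made per transcript, and ambiguous records were set aside. The counting mode is not given, and these records are taken here to include reads that fit several isoforms of a gene. A count of 0 in a gene with several isoforms therefore says nothing of that gene's level. Between 23027411 and 26036113 reads were counted per library, and 53.9 to 56.5% of the records were ambiguous.

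In the ovary, nurse cells load the oocyte with mRNAs and proteins that carry the egg through meiosis and the first embryonic divisions before the embryo's own genome is active. Yolk proteins are taken up through a receptor on the oocyte surface. Follicle cells then lay down the vitelline membrane and, outside it, the chorion, from genes that are switched on in order and in part amplified. A male has neither an oocyte nor an eggshell to build, yet some members, such as grk and Cp15, were counted in all 5 libraries.

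NB replicate 2 and LB replicate 1 stood apart from the other libraries of their own groups. In them, the summed level of the egg activation group was several times higher, whereas the chorion sum was not. The 19 transcripts of the egg activation group summed to 186 CPM (a transcript's counts relative to the library's size, which was scaled by the trimmed mean of M-values) in NB replicate 2 against 8.90 in NB replicate 1. The sum was 79.4 CPM in LB replicate 1, 18.0 in LB replicate 2 and 8.22 in LB replicate 3. The ratio of NB replicate 2 to NB replicate 1 was 20.9, with an exact 95% interval of 18.2 to 23.98, and LB replicate 1 exceeded LB replicates 2 and 3 by ratios of 4.42 and 9.67. Intervals cover counting error only. The sums over the chorion genes were 10.3 and 9.86 CPM in the NB-flies and 15.2, 19.4 and 20.7 CPM in the LB-flies.

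Across all tested members, 13 of 27 had NB replicate 2 and LB replicate 1 as their highest libraries. Of all 17337 transcripts tested, 2530 or 14.6% had that order, but the members had been chosen on it, and nothing is read from their count. Scaled by total counts alone, 14 members and 23.6% of all transcripts had it. At a 4-fold margin over each of the other 3 libraries, 6 members remained (alphaTub67C, fs(1)Ya, gnu, plu, swa and yl) of 18 transcripts in the whole table (0.104%). Closest inside that margin was plu, with 1.80 CPM in LB replicate 1 against 0.32 in NB replicate 1, and closest outside it was mtrm, with a ratio of 3.87 between LB replicates 1 and 2. In 5 of the 6, NB replicate 2 was above LB replicate 1, by a median ratio of 2.30 over the 6. The ratios of NB replicate 2 to NB replicate 1 ran from 6.67 to 59.9 over these 6, where the lowest was a lower bound. In such RNA, fewer cells of a type and less RNA per cell cannot be told apart.

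**Figure D1:**
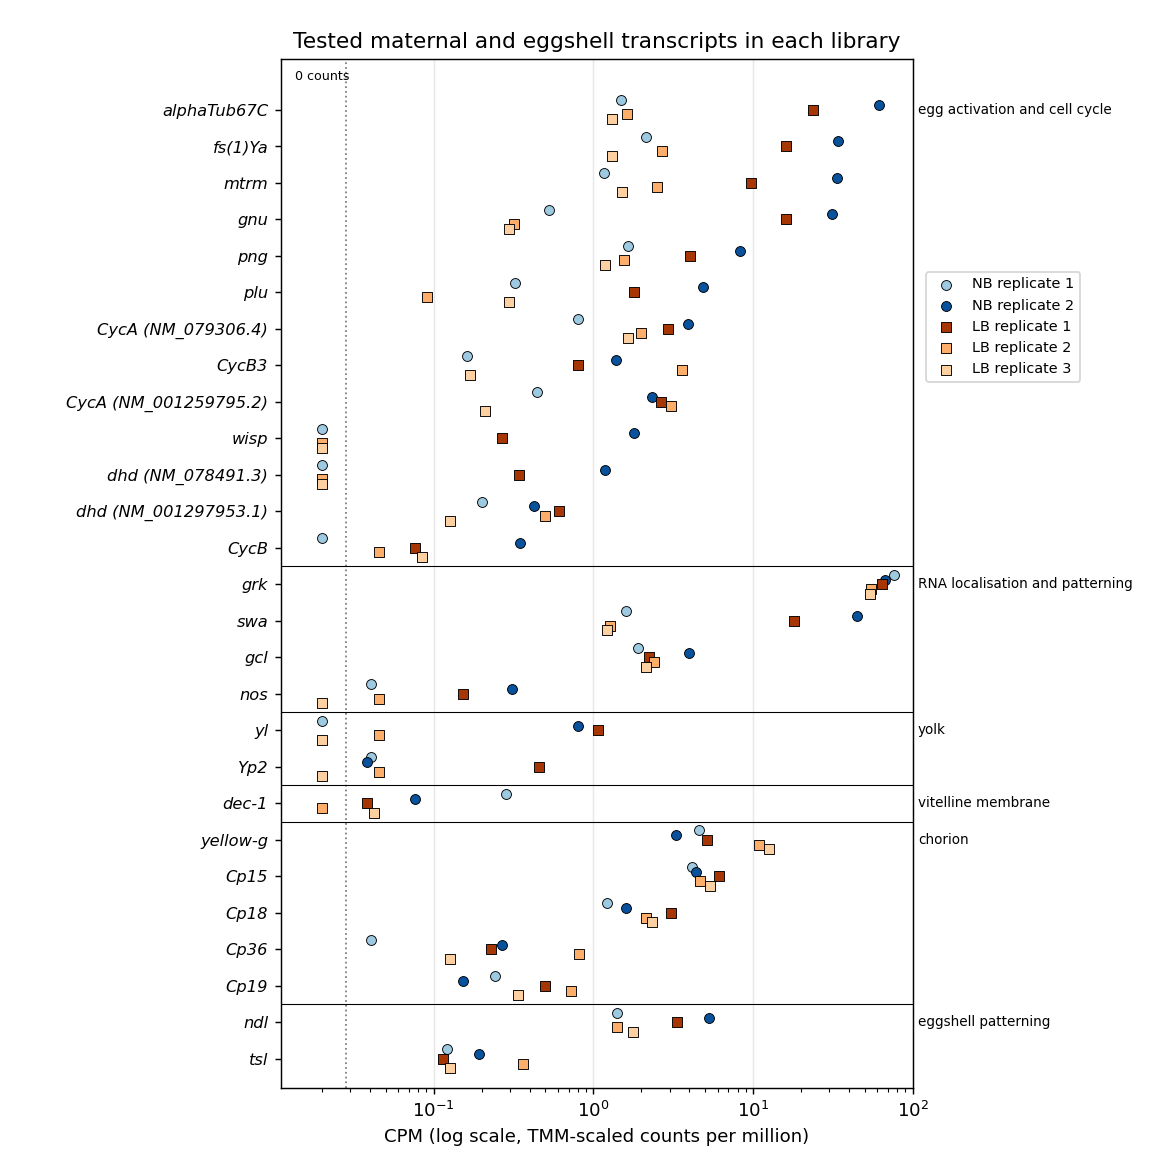
CPM on a log scale for the 27 member transcripts tested, grouped by role, with 1 point for each of the 5 libraries (circles NB, squares LB) and points left of the dotted line at 0 counts. NB replicate 2 and LB replicate 1 lie far right of the others for alphaTub67C, fs(1)Ya, mtrm, gnu, plu and swa, while the chorion transcripts do not separate in that way.

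The egg activation group was led by alphaTub67C, an alpha-tubulin made for the egg and early embryo (3L:9681268-9683370). It had 1.49 CPM in NB replicate 1, 61.6 in NB replicate 2, 23.9 in LB replicate 1, 1.64 in LB replicate 2 and 1.31 in LB replicate 3. In counts, these were 37, 1606, 626, 36 and 31 reads. The 3 low libraries, from both groups, lay close to each other. NB replicate 2 was 41.3 times NB replicate 1 (95% interval 29.9 to 58.9), and LB replicate 1 was 14.6 and 18.3 times LB replicates 2 and 3.

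The 3 subunits of the PNG kinase, the complex that switches on translation of stored mRNAs when the egg is activated, are encoded by png, gnu and plu. The activating subunit gene gnu (3L:14802380-14803360) had 0.52 CPM in NB replicate 1 and 31.4 in NB replicate 2, a ratio of 59.9 with an interval of 34.8 to 113. Its levels in the LB-flies were 16.2, 0.32 and 0.30 CPM for replicates 1, 2 and 3, so LB replicate 1 was 50.8 and 54.8 times the other libraries of its group. The partner gene plu (2R:20262958-20263684) had 8 counts in NB replicate 1, 126 in NB replicate 2, 47 in LB replicate 1, 2 in LB replicate 2 and 7 in LB replicate 3. Both genes thus had the same pair of high libraries, with plu at lower counts. The catalytic subunit gene png (X:1356488-1357601) had 1.65 and 8.33 CPM in the NB-flies and 4.01, 1.54 and 1.18 CPM in the LB-flies. Its ratio of NB replicate 2 to NB replicate 1 was 5.04, well below those of gnu and plu (15.0), and the 3 low libraries held 28 to 41 reads of png.

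A nuclear lamina protein needed for the first embryonic mitosis is encoded by fs(1)Ya (X:2724286-2726577). Its levels were 2.14 CPM in NB replicate 1, 34.3 in NB replicate 2, 16.2 in LB replicate 1, 2.68 in LB replicate 2 and 1.31 in LB replicate 3. The inhibitor of Polo kinase that helps hold the oocyte in prophase, mtrm (3L:8413012-8414103), had 1.17 and 33.8 CPM in the NB-flies and 9.66, 2.50 and 1.52 CPM in the LB-flies. For mtrm the step between the high libraries was wider than for fs(1)Ya, with NB replicate 2 at 3.50 times LB replicate 1 against 2.12 times.

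Low counts of wisp, the poly(A) polymerase that lengthens the tails of maternal mRNAs, were seen in the same libraries. Its transcript NM_001298215.1, the only one of 3 with a count, had 47 counts in NB replicate 2, 7 in LB replicate 1 and 0 in the other 3 libraries. A count of 0 allows up to 3 counts, which is 0.115 to 0.136 CPM per library, so that this transcript was at least 14.9-fold higher in NB replicate 2 than in NB replicate 1. One isoform of dhd (NM_078491.3), a thioredoxin of the female germline that acts on sperm chromatin at fertilization, had 31 counts in NB replicate 2, 9 in LB replicate 1 and 0 elsewhere. Its second isoform (NM_001297953.1) had 5, 11, 16, 11 and 3 counts in NB replicates 1 and 2 and LB replicates 1, 2 and 3, and LB replicates 1 and 2 and NB replicate 2 were not far apart. Reads that fit both isoforms are taken here as not counted.

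The mitotic cyclins, which male germline and other dividing cells also use, had a looser order. These cyclin genes have several annotated isoforms, so the values give an isoform's own reads and not the level of the gene. Of the transcripts of CycA tested, NM_079306.4 had 0.81 and 3.91 CPM in the NB-flies and 2.94, 2.00 and 1.64 CPM in the LB-flies. The other CycA transcript, NM_001259795.2, had 0.44 and 2.34 CPM in the NB-flies and 2.64, 3.04 and 0.21 CPM in the LB-flies, and LB replicate 2 was highest. LB replicate 2 was also highest for the only CycB3 transcript with a count, at 3.59 CPM. This transcript had 0.16 and 1.38 CPM in the NB-flies and 0.80 and 0.17 CPM in LB replicates 1 and 3. No transcript of the remaining egg activation genes had its highest level in LB replicate 2. For CycB, NM_166558.2 had 0 and 9 counts in the NB-flies and 2, 1 and 2 in the LB-flies, and NM_166557.3, at 0 to 3 counts, was not tested.

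**Figure D2:**
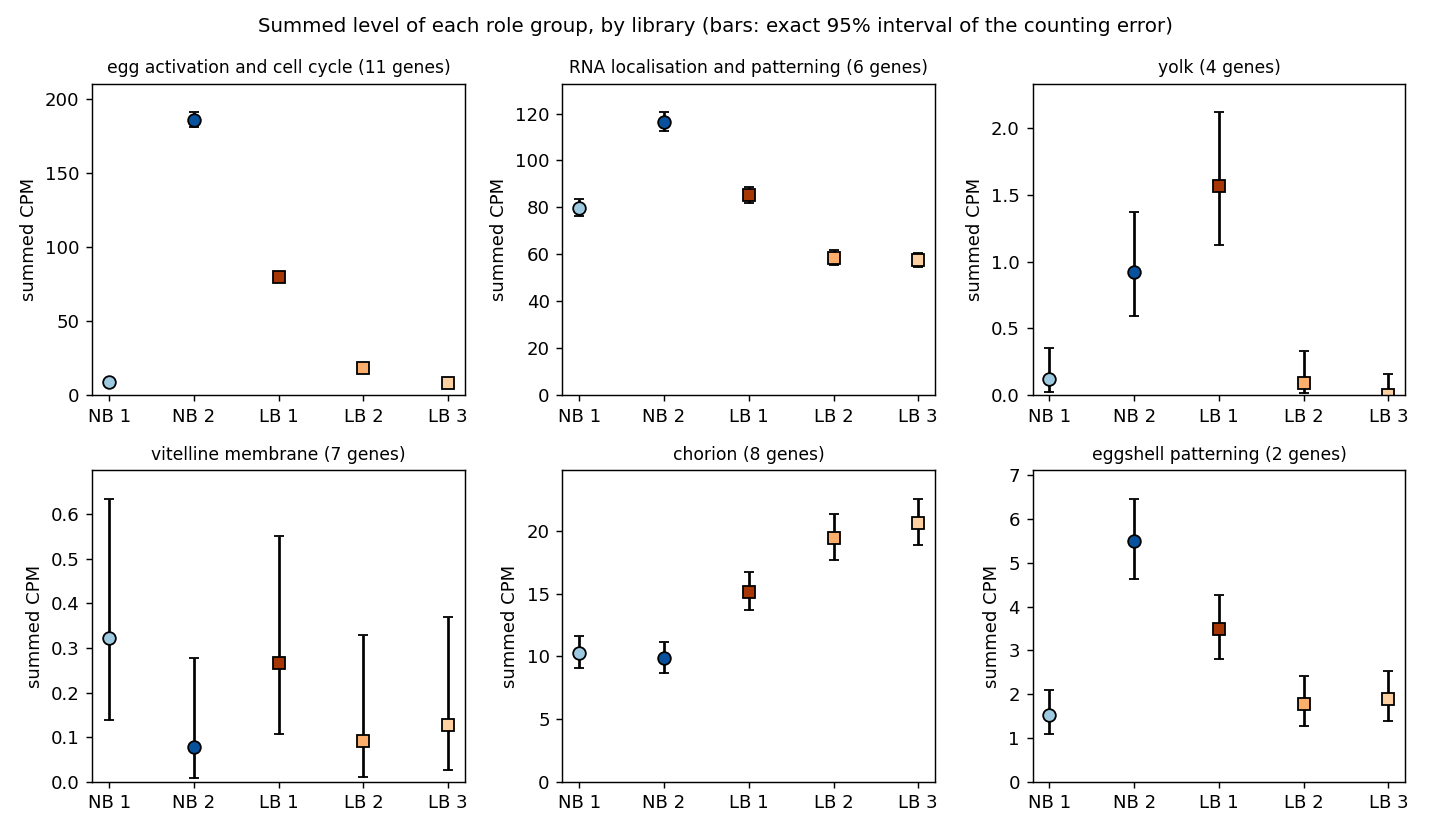
Summed CPM of each role group of members in the 5 libraries, on a linear scale from 0 that differs between panels, with bars for the exact 95% counting interval. The egg activation sum is 186 CPM in NB replicate 2 and 79.4 in LB replicate 1 against 8.22 to 18.0 in the others, while the chorion sum runs from 9.86 to 20.7 with its lowest value in NB replicate 2.

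Among the genes of RNA localisation and embryo patterning, swa followed the egg activation genes and grk did not. The product of swa (X:6363418-6365708) takes part in localising bicoid mRNA in the oocyte. It had 1.61 CPM in NB replicate 1, 45.0 in NB replicate 2, 18.1 in LB replicate 1, 1.27 in LB replicate 2 and 1.22 in LB replicate 3. Its ratio of NB replicate 2 to NB replicate 1 was 27.9, and LB replicate 1 was 14.2 and 14.8 times LB replicates 2 and 3. The TGF-alpha-like ligand gene grk, which signals from oocyte to follicle cells, had the most counts of all members, with 76.1 and 67.1 CPM in the NB-flies and 64.7, 54.7 and 54.2 CPM in the LB-flies. Every library thus held grk at a similar level, with the highest in NB replicate 1. The annotated exons of grk share 212 bases with those of Akap200 on the opposite strand, and the strand setting of the counting is not given in the sources used here, so that reads of the overlap cannot be assigned.

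The other localisation genes had low counts. The germ cell determinant gcl (NM_165622.2) had 1.89 and 3.99 CPM in the NB-flies and 2.22, 2.41 and 2.15 CPM in the LB-flies, with NB replicate 2 alone above the rest. The translational repressor nos had 1 and 8 counts in the NB-flies and 4, 1 and 0 in the LB-flies. No count was given to any transcript of osk or bcd, and both genes have several isoforms. Without grk, the summed level of the group had a ratio of 13.6 between the NB libraries, against 1.46 with it.

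Few reads were assigned to yolk genes, each of which has 2 annotated isoforms, so these counts give the level of an isoform's own reads and not of the gene. The yolk protein receptor gene yl (NM_078596.3) had 0 and 21 counts in the NB-flies and 28, 1 and 0 in the LB-flies, and was the only 1 of the 6 widest-split members with LB replicate 1 above NB replicate 2 (ratio of NB to LB library 0.753). Against a count of 0, NB replicate 2 was at least 6.67-fold higher than NB replicate 1. A transcript of Yp2, a yolk protein made in female fat body and follicle cells, had 12 counts in LB replicate 1 and 0 or 1 in the other libraries. Yp3 had 0 to 2 counts per library, and Yp1 had none.

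Few reads were assigned to the vitelline membrane genes made by follicle cells, of which only Vm34Ca has a single transcript, and their gene levels cannot be read from these counts. No count was given to Vm26Aa, Vm26Ab or Vml, which have several isoforms. Vm32E had 1 count in all, in LB replicate 1, and Vm34Ca had 2 in LB replicate 1 and 1 in LB replicate 2. The palisade gene psd had 0 to 3 counts per library. For dec-1, whose product is cleaved into several eggshell proteins, NM_167133.2 had 7 and 2 counts in the NB-flies and 1, 0 and 1 in the LB-flies, so that NB replicate 1 was highest.

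Summed over the chorion genes, reads were counted in all libraries, with no rise in NB replicate 2. Most of these reads were of Cp15, Cp18 and yellow-g. The cluster of Cp15, Cp16, Cp18 and Cp19 (3L:8726791-8732599), which follicle cells amplify before the chorion is made, summed to 5.60 and 6.25 CPM in the NB-flies and 9.70, 7.496 and 8.01 CPM in the LB-flies. Cp15 had 4.15 and 4.37 CPM in the NB-flies and 6.15, 4.63 and 5.35 CPM in the LB-flies. Cp18 had 1.21 and 1.61 CPM in the NB-flies and 3.06, 2.14 and 2.32 CPM in the LB-flies. In both, LB replicate 1 was highest, but within 1.5 times of LB replicate 2. Cp19 had 6 and 4 counts in the NB-flies and 13, 16 and 8 in the LB-flies, and Cp16 had 3 counts in NB replicate 2 and 0 elsewhere.

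The second amplified chorion locus (X:8479319-8483311) holds Cp36 and Cp38, genes of major early chorion proteins. Cp36 had 1 and 7 counts in the NB-flies and 6, 18 and 3 in the LB-flies, and LB replicate 2 was highest. Cp38 had 2 counts, both in LB replicate 2. An eggshell protein of the yellow family is encoded by yellow-g, which had 4.59 and 3.30 CPM in the NB-flies and 5.16, 10.9 and 12.5 CPM in the LB-flies. NB replicate 2 was its lowest library, and LB replicate 1 was its lowest LB library. Its neighbour yellow-g2 had 0 to 3 counts per library. The exons of yellow-g share 23 bases with CG32302 on the opposite strand.

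The maternal genes of embryo patterning that work through the eggshell were ndl and tsl. The protease gene ndl, whose product starts the dorsoventral cascade in the space around the embryo, had 1.41 and 5.29 CPM in the NB-flies and 3.36, 1.41 and 1.77 CPM in the LB-flies, and its exons share 3 bases with MCU. The gene tsl, whose product marks the egg's ends for Torso signalling, had 3 and 5 counts in the NB-flies and 3, 8 and 3 in the LB-flies. Thus ndl had the order of the egg activation genes at a ratio of 3.76. For tsl, only 1 of 3 annotated isoforms had counts, with a ratio of 1.59 and an interval of 0.309 to 10.2. The order of tsl therefore cannot be read from these counts.

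Isoforms cannot hide reads of genes with a single annotated transcript, of which there were 17, and 14 of them were tested. Of the 8 such egg activation and localisation genes, 7 had NB replicate 2 and LB replicate 1 highest, grk being the exception. None of the 5 tested transcripts from the 8 single-transcript chorion and vitelline membrane genes did. All 5 were chorion genes, so for the vitelline membrane the order was not examined in a gene with 1 transcript. Of all transcripts tested, 14.6% had the order, but the members were chosen on it, and nothing is read from these counts. Per kilobase of annotated exon, the levels of the 8 maternal genes in NB replicate 2 were 39.1 CPM for grk, 38.1 for alphaTub67C, 34.0 for gnu, 31.0 for mtrm, 22.2 for swa, 15.3 for fs(1)Ya, 7.85 for plu and 7.47 for png. In the same library and unit, Cp15 was at 8.49 and Cp18 at 2.48, so that Cp15 was above plu and png and below the others. In NB replicate 1, grk was at 44.3 CPM per kilobase, Cp15 at 8.06 and Cp18 at 1.86, and the other 7 maternal genes ran from 0.52 for plu to 1.48 for png.

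The comparison that the labels give is LB-flies against NB-flies. Each group had its own rearing place, so background radiation and the other conditions of that place cannot be told apart. None of the 27 members was called at 1.5-fold and a false discovery rate of 0.05 (edgeR, quasi-likelihood fit, Benjamini-Hochberg adjusted), and none of the 17337 transcripts was (0%). At an unadjusted p under 0.05 in edgeR, 3 members stood out beside 7.57% of all transcripts, and the 3 had more RNA in LB-flies (3.91%) and 0 had less (3.66%). DESeq2 called 76 of all transcripts (0.438%) and 0 members, with an adjusted p given for 16 members and the lowest at 0.292. The log2 fold change was above 0 in 10 members and below 0 in 17, with a median of -0.38 beside -0.02 over all transcripts. Adjusted p-values of the members ran from 0.625 to 0.994.

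Each group held a high library of the egg activation genes, and for alphaTub67C the SD of the NB-flies exceeded the difference between the group means while that of the LB-flies did not. The mean level of alphaTub67C was 31.6 CPM ± 42.5 (SD, n = 2) in NB-flies and 8.95 CPM ± 12.96 (SD, n = 3) in LB-flies. Its log2 fold change was -1.81 with an SE of 1.60 (edgeR adjusted p = 0.774). For gnu the log2 fold change was -1.50 with an SE of 1.85 (edgeR adjusted p = 0.843), and for swa it was -1.75 with an SE of 1.51 (edgeR adjusted p = 0.767). The direction rested on NB replicate 2. Without it, the log2 fold changes were 2.55 for alphaTub67C, 3.38 for gnu and 2.06 for swa, and the median over the members tested was 1.30. Without LB replicate 1 they were -4.42, -5.68 and -4.22, and the median was -1.21. With both libraries left out together they were -0.02, -0.76 and -0.37.

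The 5 chorion transcripts tested all had a log2 fold change above 0, which 47.4% of all transcripts had. Their median was 1.27, and none was called. Chorion genes outside the members went both ways, at 0 to 11 counts per library. Log2 fold changes were -1.66 for Cp7Fb (edgeR unadjusted p = 0.023, adjusted p = 0.625), -1.41 for Cp7Fc and 0.10 for Cp7Fa. Every LB library was above both NB libraries for Cp15, Cp18, Cp19 and yellow-g, so for 4 of the 27 members, beside 14.8% of all transcripts. Levels of yellow-g were 3.95 CPM ± 0.914 (SD, n = 2) in NB-flies and 9.53 CPM ± 3.87 (SD, n = 3) in LB-flies, which gave a log2 fold change of 1.27 with an SE of 0.41 (edgeR unadjusted p = 0.0209, adjusted p = 0.625). Those of Cp18 were 1.41 CPM ± 0.285 (SD, n = 2) and 2.50 CPM ± 0.487 (SD, n = 3), a log2 fold change of 0.83 with an SE of 0.28 (edgeR unadjusted p = 0.0258, adjusted p = 0.625). Cp19, the last of the 3 members with an unadjusted p under 0.05, had a log2 fold change of 1.37 with an SE of 0.54 (edgeR adjusted p = 0.625). Every LB library was below both NB libraries for grk and dec-1, so for 2 members beside 13.1% of all transcripts. For grk the means were 71.6 CPM ± 6.36 (SD, n = 2) and 57.9 CPM ± 5.90 (SD, n = 3), with a log2 fold change of -0.31 and an SE of 0.14 (edgeR adjusted p = 0.625).

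**Figure D3:**
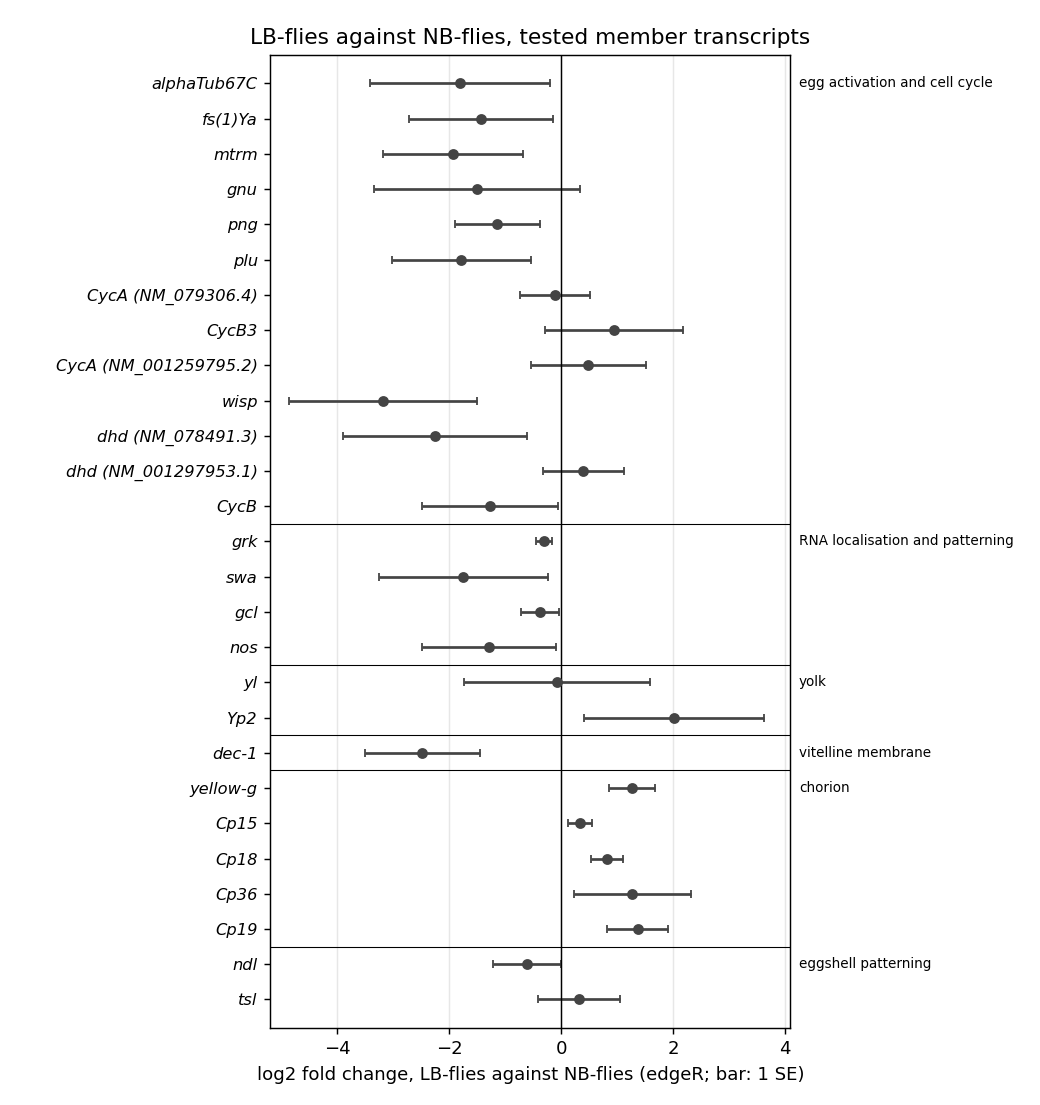
Log2 fold change of LB-flies against NB-flies for the 27 member transcripts tested, with bars of 1 SE from the edgeR fit. In the egg activation group the SE is 1.60 for alphaTub67C, but 0.76 for png and 0.62 for a CycA transcript. Among chorion genes it is 0.28 for Cp18 and 0.41 for yellow-g, but 1.05 for Cp36.

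Other genes of the same tissues, taken as lists, also differed in whether they had the high libraries. The lists were chosen with earlier results of these data known, so nothing is read from how many of their transcripts had the order. The list of 12 further eggshell genes summed to 43.5 and 239 CPM in the NB-flies and 187, 48.2 and 50.5 CPM in the LB-flies. NB replicate 2 and LB replicate 1 were highest for 4 of its 9 tested transcripts, beside 14.6% of all transcripts tested. Those 4 were Pxt, clos, fs(1)M3 and fs(1)N. The last 3 encode proteins needed for the vitelline membrane and for Torso signalling, and Pxt encodes a cyclooxygenase-like enzyme of the ovary. Pxt had 0.685 and 68.4 CPM in the NB-flies and 22.9, 1.00 and 0.337 CPM in the LB-flies. For fs(1)M3 the levels were 0.77 and 39.6 CPM in the NB-flies and 42.6, 0.59 and 0.59 CPM in the LB-flies. The split of fs(1)N was much narrower, with 32.8 and 63.5 CPM in the NB-flies and 59.8, 36.9 and 41.6 CPM in the LB-flies. The chorion gene Cp7Fb of this list had 8 and 6 counts in the NB-flies and 2 in each LB library. Femcoat of the same list had 4 and 9 counts in the NB-flies and 2, 2 and 3 in the LB-flies, with NB replicate 2 highest, and these counts are too low to give an order.

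The 17 other female germline genes had 65 listed transcripts, of which 21 were tested, and 3 genes had no count. Of the 21, 7 had the order, beside 14.6% of all transcripts tested, and 0 had it at a 4-fold margin. Nothing is read from these counts, since this list too was chosen with earlier results known. Over the list, the sums were 163 and 189 CPM in the NB-flies and 188, 165 and 165 CPM in the LB-flies. Reads that isoforms share may be missing from these sums, which then fall short of the levels of the genes. Germline genes used in both sexes summed to 30.9 and 59.0 CPM in the NB-flies and 33.1, 29.4 and 37.0 CPM in the LB-flies, with NB replicate 2 highest. The sum of female fat body and spermathecal genes had neither high library, with 5.48 and 3.18 CPM in the NB-flies and 2.14, 3.73 and 7.63 CPM in the LB-flies. Most of these reads were of 1 gene, fit, with 120 and 54 counts in the NB-flies and 30, 65 and 157 in the LB-flies. CG17234, at low counts, had 0 and 8 in the NB-flies and 2, 0 and 3 in the LB-flies. Of these 6 genes 4 transcripts were tested, 0 had the order, and CG17239 had no count. No transcript of these lists was called in LB-flies against NB-flies.

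Replication, accessory gland and testis lists also differed between libraries, but none had NB replicate 2 and LB replicate 1 as its highest libraries. Replication genes, which follicle cells use to amplify chorion loci and other dividing cells use as well, summed to 133 and 342 CPM in the NB-flies and 153, 178 and 111 CPM in the LB-flies. Only NB replicate 2 was high in that list, and 5 of its 18 tested transcripts had the order of the members, beside 14.6% of all transcripts tested. From that count, too, nothing is read. Accessory gland genes, a male product, summed to 3952 and 3855 CPM in the NB-flies and to 2011, 5645 and 6695 CPM in the LB-flies, so that LB replicate 1 was lowest and NB replicate 2 was not low. Testis genes were at 4306 CPM in NB replicate 2, the lowest library, and at 4883 to 5778 in the others, so every library held abundant testis mRNA. The part of these lists in the members' levels was not tested.

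**Figure D4:**
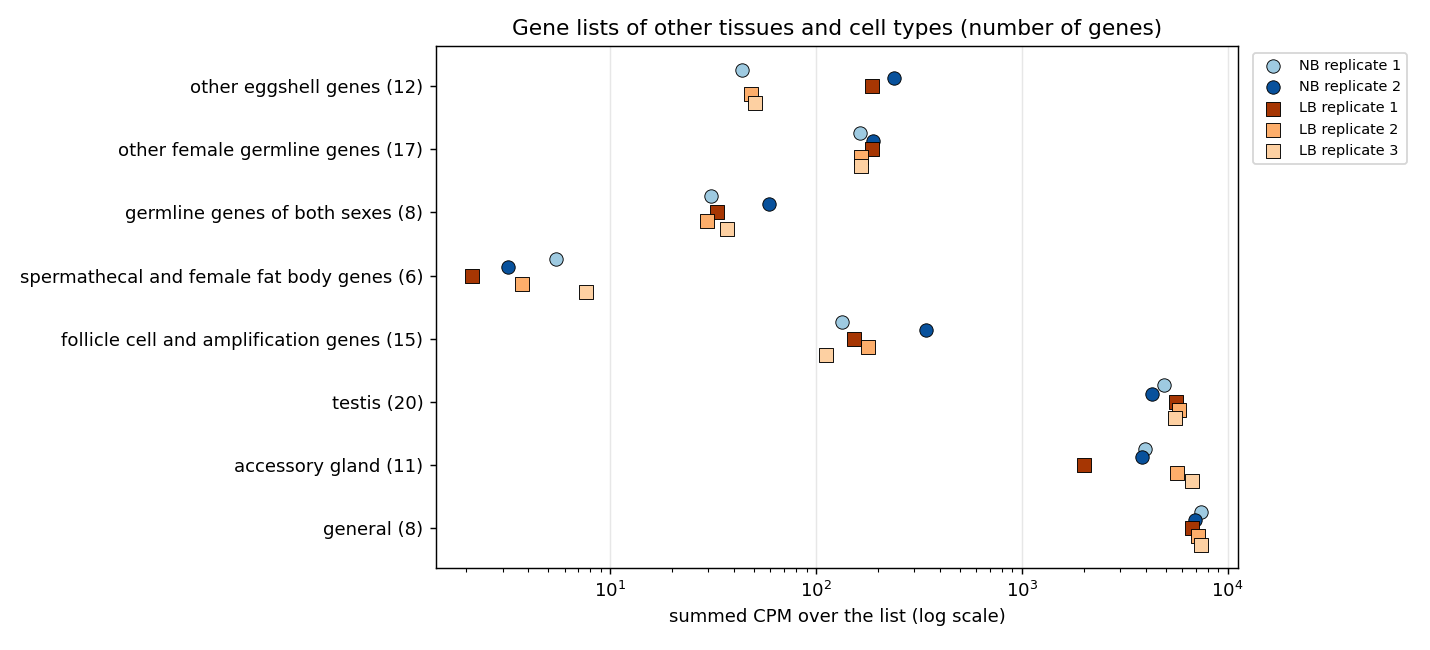
Summed CPM of the marker lists in each of the 5 libraries, on a log scale, where the general list holds widely expressed genes. The further eggshell genes are high in NB replicate 2 (239 CPM) and LB replicate 1 (187 CPM), the replication genes (follicle cell and amplification list) in NB replicate 2 alone (342 CPM), and the accessory gland genes are lowest in LB replicate 1 (2011 CPM).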

How the data were processed

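Whole adult Oregon-R males of 2 NB and 3 LB vials were profiled by poly(A) RNA-seq. Reads were trimmed (Trim Galore, cutadapt) and mapped to dm6 with HISAT2, and the authors deposited HTSeq counts per RefSeq transcript, not normalized. Although the library kit was stranded, the counting mode and strand setting are not given in the sources used here. The 5 rows that name no gene, 71.6 to 73.6% of records, were left out of library sizes and tests.

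Here 33753 IDs were matched to symbols with their version and 33899 without it, of 34111. Gene positions are those of the annotation of the same assembly. Transcripts with at least 10 summed counts were tested with edgeR 4.0.16 (quasi-likelihood test, TMM, R 4.3.3), with Benjamini-Hochberg adjustment over 17337 transcripts at 0.05 and 1.5-fold. DESeq2 1.42.0 and limma-voom 3.58.1, other scalings and filters, sums per gene, replicate blocks and left-out libraries were the alternatives. The fit was tested on simulated data. The vials of a group shared a rearing place, so p-values measure only the spread between these vials. Exact intervals are Clopper-Pearson, at 95%. In each role group, the 5 transcripts with the highest mean CPM and every tested one without the order of the rule were named in full. The members and lists were chosen with earlier results of these data known. Sequences were not used here.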

Additional observations from a re-analysis of the deposited data

How the results depend on the processing

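Among the values recomputed for 13 named members, 195 kept their direction and 10 changed it. No member was called in the main fit or in another, so the threshold did not part these values. Most of the runs fitted the same 5 libraries again with another scaling, filter or model. Leaving out single libraries moved log2 fold changes over -4.42 to 2.55 for alphaTub67C, -5.68 to 3.38 for gnu, -3.19 to 1.63 for fs(1)Ya, -3.12 to 1.94 for mtrm, -1.87 to 0.43 for png, -3.69 to 1.17 for plu, -4.22 to 2.06 for swa and -1.26 to 0.62 for ndl, and NB replicate 2 was the library whose absence turned the sign each time. With NB replicate 2 and LB replicate 1 both left out, mtrm was at 0.78 and ndl at 0.17, and the median of the members tested was 0.44. That median ran from -1.21 to 1.30 over the single left-out libraries. In every alternative run, 0 members were called. Over all transcripts, DESeq2 called 76 and the fits without 1 library called 0 to 1, the 1 without LB replicate 3. The replicate numbers do not pair the vials by the labels, and same-numbered libraries had correlated deviations of -0.17 and 0.02 over 6870 transcripts. With the replicate number as a block 5 transcripts were called, none a member. A block by library name, and a crossed block chosen after seeing the data, called 0 (422 and 873 at an unadjusted p under 0.05). Without the member of most counts, the ratios of NB replicate 2 to NB replicate 1, and of LB replicate 1 to LB replicates 2 and 3, were 16.7, 3.40 and 8.03 for egg activation, 13.6, 5.37 and 6.08 for RNA localisation and 1.16, 1.17 and 1.23 for chorion, where yellow-g had been left out. For eggshell patterning without ndl the first of these were 1.59 and 0.315. Scaled by total counts, RNA localisation had ratios of 1.60 and 1.61. With at least 10 counts in every library, 12 members were tested and 7 of these had the order of the rule. The share of all transcripts under that filter was not computed, and nothing is read from this count. In the members with 0 counts, depth allowed 3 counts per library.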

Other observations

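Outside the members and lists, 9 transcripts had NB replicate 2 and LB replicate 1 at least 4-fold above the other libraries, and 8 of these belong to genes known only by a CG number. CG11674 had 0.32 and 23.6 CPM in the NB-flies and 18.8, 0.41 and 0.38 CPM in the LB-flies. CG6927 had 0.44 and 20.8 CPM in the NB-flies and 6.84, 0.45 and 0.30 CPM in the LB-flies. CG14545 had 0.97 and 13.1 CPM in the NB-flies and 11.1, 0.91 and 0.21 CPM in the LB-flies. For CG43112 and CG42704, LB replicate 1 was the higher of the pair, at 7.79 and 6.57 CPM against 4.37 and 4.49 in NB replicate 2. The named gene of the 9 was stet, a rhomboid protease gene of the germline, with 19 counts in NB replicate 2, 15 in LB replicate 1 and 0 elsewhere.

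A further 4 genes, chosen after their values were seen, had NB replicate 2 and LB replicate 1 as their highest libraries. The exonuclease gene tos had 3.30 and 24.3 CPM in the NB-flies and 10.1, 4.18 and 2.07 CPM in the LB-flies. The meiotic kinase gene Mos had 42 and 218 counts in the NB-flies and 125, 33 and 33 in the LB-flies. The mitotic kinase gene gwl had 0.483 and 3.57 CPM in the NB-flies and 1.99, 0.727 and 0.548 CPM in the LB-flies. For c(2)M, a component of the synaptonemal complex that pairs chromosomes in female meiosis, the levels were 2.50 and 8.13 CPM in the NB-flies and 9.01, 1.95 and 1.69 CPM in the LB-flies. None of these was called in LB-flies against NB-flies by edgeR, with Benjamini-Hochberg adjusted p-values of 0.705 for tos, 0.748 for Mos, 0.793 for gwl and 0.927 for c(2)M.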
